A study of Mus musculus with 4 samples.

Results

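Transcripts of 10 Hippo pathway genes were followed in testes of 3-day-old mice that carried a dominant-negative thyroid hormone receptor alpha 1 (TRα1), in comparison with testes with the wild-type receptor. The genes are the coactivator genes Yap1 and Wwtr1, the kinase genes Lats1 and Lats2, the scaffold gene Amotl2, the transcription factor genes Tead1, Tead2 and Tead3, and the matricellular genes Ctgf and Cyr61. They were chosen by symbol, and all 10 are among the 22609 genes of the count table and among the 14788 that passed the filter on low counts. Polyadenylated RNA of whole testes was sequenced in 4 libraries, of which 2 are labelled mutant and 2 wild type. All animals had a predominantly C57BL/6J background and came from crosses of AmhCre mice with mice heterozygous for the TRαAMI allele. The Amh promoter drives Cre in Sertoli cells, the somatic cells of the seminiferous tubule, so the mutant receptor is restricted to a single cell type while RNA was taken from the whole organ. Whether the wild-type animals carried AmhCre, and whether a library came from 1 animal or a pool, is not given in the labels, and the p-values reflect the spread between these 4 libraries alone, which may be technical. In such bulk RNA, fewer cells of a type and less RNA per cell cannot be told apart.

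The Hippo pathway is a kinase cascade that restrains the coactivators YAP (from Yap1) and TAZ (from Wwtr1). The kinases MST1 and MST2 activate LATS1 and LATS2, which phosphorylate YAP and TAZ and hold them in the cytoplasm. When the cascade is quiet, YAP and TAZ enter the nucleus and bind TEAD proteins, which sit on DNA at CATTCC-like motifs and switch on genes such as Ctgf, Cyr61, Amotl2 and Lats2. Amotl2 and Lats2 in turn dampen YAP, so part of the output is negative feedback. Activity of the pathway is set largely by phosphorylation and location of the proteins, which transcript counts do not measure. In the neonatal testis thyroid hormone is known for slowing Sertoli cell proliferation and promoting maturation of these cells.

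Gene counts per library summed to 11089136 and 15636832 in the mutant and to 13228903 and 10230512 in the wild-type libraries, and the members were covered by 265 to 4851 reads per library. Thra, which carries the engineered allele, was read at 237 and 194 CPM (reads of the gene per 1000000 counted reads) in mutant and at 398 and 257 CPM in wild-type testes and was not called (log2 fold change -0.60, mutant minus wild type; edgeR, adjusted p = 0.0964). Thra did pass with mutant replicate 1 left out (-0.75, adjusted p = 0.00556), with wild-type replicate 2 left out (-0.89, 0.0464) and with a replicate block (-0.57, 0.0281), and the value with wild-type replicate 1 left out was -0.26. Counts per gene do not separate the mutant from the normal transcript, and the value therefore says nothing about the genotype labels. The libraries held the transcripts that define testis. The 10 Sertoli cell markers summed to 4258 and 4283 CPM in mutant and 5269 and 5716 CPM in wild-type libraries, with 2 of 10 called lower. The 10 germ cell markers summed to 310.0 and 272 CPM against 866 and 574 CPM, with all 10 called lower and a median log2 fold change of -1.40. Nanos2 passed the filter on low counts only through the wild-type libraries, where it was high, so its call is not independent of that filter. Over all tested genes 3.15% were called higher and 2.52% lower. Of the marker lists for other cell types of the testis and for adjoining tissues, some differed between genotypes and some were close. Skeletal muscle markers summed to 2479 and 648 CPM in the first and second mutant library and to 19.2 and 17.9 CPM in the wild-type pair, with 1 of 10, Myog, at 0 in both wild-type libraries. Of these 10 markers 8 were called higher. Among the 8, Acta1 and Tnnc2 passed the filter on low counts only through the mutant libraries, where they were high, so their calls are not independent of it. Mesothelial markers summed to 695 and 862 CPM in mutant and 572 and 594 CPM in wild-type libraries, with 5 of 8 called higher. That sum holds Wt1, which is also a Sertoli cell marker, and without it the sums were 458 and 618 CPM against 335 and 365 CPM. Macrophage markers summed to 274 and 360.2 CPM in mutant and 191 and 215 CPM in wild-type libraries, with 3 of 10 called higher. Adipocyte markers summed to 27.4 and 26.7 CPM in mutant and 76.5 and 84.5 CPM in wild-type libraries, with 5 of 6 called lower. Adipoq, Cidec, Retn and Cfd passed the filter on low counts only through the wild-type libraries, where they were high. Their calls are thus not independent of that filter, and Fabp4 was the other gene called. Endothelial markers summed to 417 and 384 CPM against 361 and 358 CPM, Leydig cell markers to 1194 and 1178 CPM against 1003 and 1124 CPM, and peritubular myoid and smooth muscle markers to 2195 and 1877 CPM against 1928 and 1857 CPM. No endothelial marker was called, 1 of 7 tested Leydig cell markers was lower, and 1 of 8 peritubular and smooth muscle markers was higher. The part of these cell types and tissues, Sertoli and germ cells included, in the results below was not tested.

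The sequences of 3 promoters show where a TEAD-type motif lies near members of both kinds, a target and the coactivators. RefSeq promoters (table build GRCm38.p6, each placed by an exact match in mm9) were found for 8 of the 10 members, and Ctgf and Tead1 had no match. The motif searched was CATTCC on either strand, read as GGAATG on the other, in the 250 bases before the transcription start. It was present in 7 of the 12 promoters of these 8 members, which belong to 5 genes (Cyr61, Amotl2, Yap1, Wwtr1 and Tead3), against 4153 of 32851 promoters in the whole table (12.6%). The 2 Wwtr1 promoters share a single site, so these counts are not independent, and a match is a description of letters and not of binding. The sequences run 5′ to 3′ along the gene's strand, end at the base before the transcription start, overlap no annotated exon, and carry the motif in capitals. Its first base lies 103 bases before the start in Cyr61, 141 in Yap1 and 136 in Wwtr1.
Cyr61 (chr3:145312950-145313199, minus strand, mm9): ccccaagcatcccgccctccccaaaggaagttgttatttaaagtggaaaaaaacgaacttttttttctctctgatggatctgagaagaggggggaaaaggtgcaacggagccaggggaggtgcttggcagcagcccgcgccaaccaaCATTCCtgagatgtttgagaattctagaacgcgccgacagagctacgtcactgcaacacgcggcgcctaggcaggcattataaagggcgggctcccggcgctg
Yap1 (chr9:8004597-8004846, minus strand, mm9): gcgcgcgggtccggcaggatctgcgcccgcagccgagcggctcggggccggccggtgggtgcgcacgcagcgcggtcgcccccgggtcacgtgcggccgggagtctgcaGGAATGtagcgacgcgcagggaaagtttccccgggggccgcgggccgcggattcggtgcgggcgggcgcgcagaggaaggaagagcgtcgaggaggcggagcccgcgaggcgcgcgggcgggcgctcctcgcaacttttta
Wwtr1 (chr3:57379833-57380082, minus strand, mm9): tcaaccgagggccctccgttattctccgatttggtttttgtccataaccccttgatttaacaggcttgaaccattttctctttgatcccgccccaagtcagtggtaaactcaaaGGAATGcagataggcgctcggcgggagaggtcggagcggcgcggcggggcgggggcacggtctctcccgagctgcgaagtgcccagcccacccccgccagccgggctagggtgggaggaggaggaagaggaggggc

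Of the 10 members, 1 rose and 1 fell in mutant testes. Tead1 rose 1.61-fold and Ctgf fell 1.30-fold, while the coactivators, both kinases, Amotl2, Tead2, Tead3 and Cyr61 were not called. Calls were made by edgeR's quasi-likelihood test at an adjusted p below 0.05 over all tested genes, by which 3.15% of genes were called higher and 2.52% lower (5.67% either way). The mutant libraries lay on one side of the wild-type libraries in 8 of 10 members, above in 6 and below in 2, as they did in 57.3% of all tested genes (28.3% above and 29% below). The median log2 fold change (mutant minus wild type throughout) was 0.13 over the members and -0.01 over all tested genes.

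**Figure D1:**
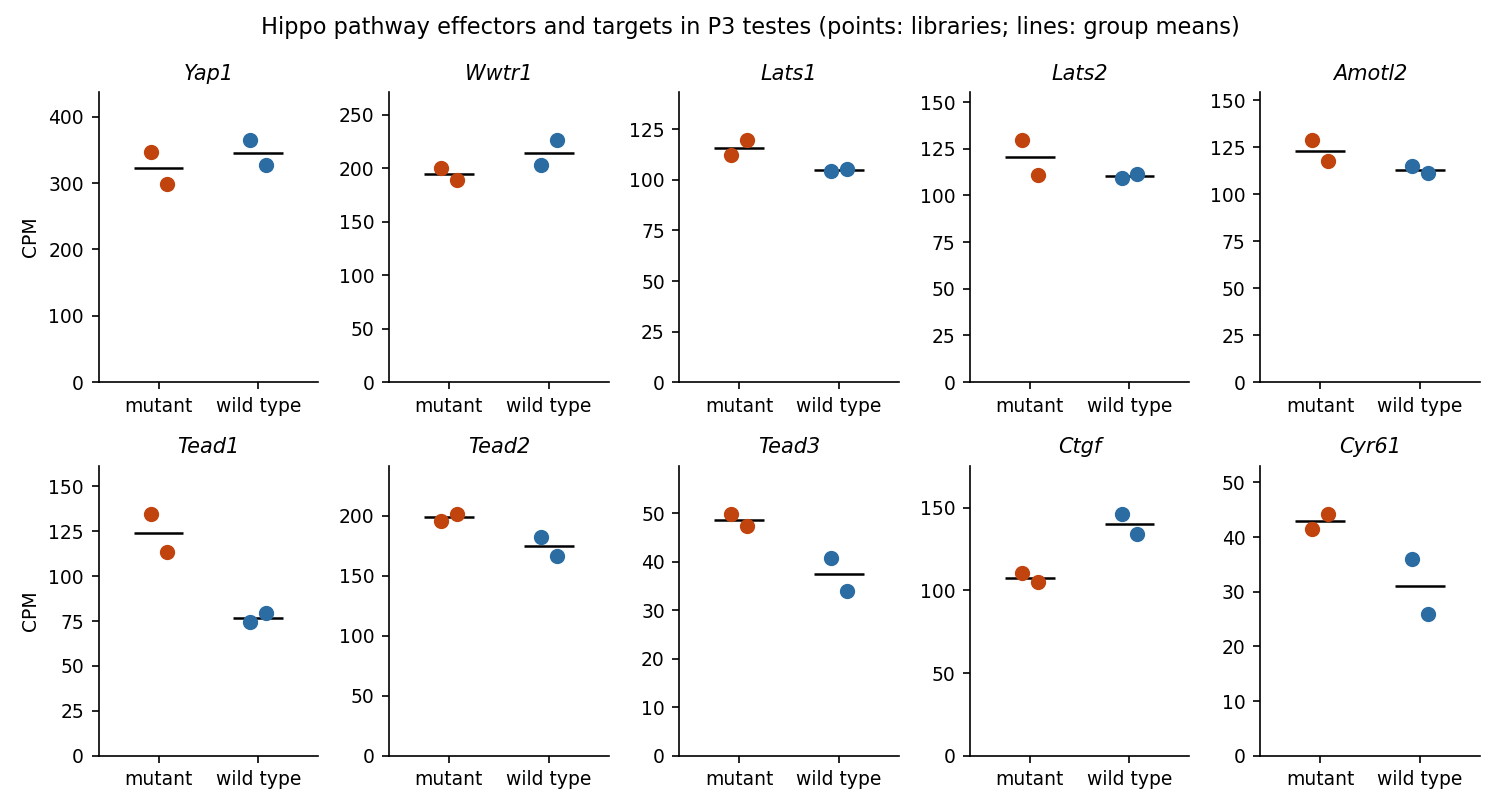
CPM of each member (y axis, from 0) in the 2 mutant and 2 wild-type libraries (points), with group means as lines. Tead1 stood at 135 and 113 CPM in mutant against 74.4 and 79.4 CPM in wild-type testes, and Ctgf at 110.3 and 105 CPM against 146 and 134 CPM, while the Yap1 and Lats2 points of the groups overlap.

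The transcripts of the coactivators themselves were abundant and close between the genotypes. Yap1 (chromosome 9, 7931999 to 8004596, minus strand, mm9) stood at 347 and 298 CPM in mutant and 364 and 327 CPM in wild-type testes. The groups overlapped, and the log2 fold change was -0.10 ± 0.10 (SE; 95% interval -0.34 to 0.14; edgeR adjusted p = 0.59). Another annotated gene overlaps Yap1 exons on the opposite strand and was not analysed here. Wwtr1 (chromosome 3, 57259571 to 57379832, minus strand) was read at 201 and 189 CPM in mutant and 203 and 226 CPM in wild-type testes. Both mutant values lay just under both wild-type values, at a log2 fold change of -0.14 ± 0.09 (interval -0.34 to 0.07; adjusted p = 0.364). The intervals leave room for falls of Yap1 to 0.792 and of Wwtr1 to 0.788 of the wild-type level. Without a scaling between libraries, Yap1 reads outnumbered Wwtr1 reads 1.73 and 1.58 times in mutant and 1.79 and 1.44 times in wild-type libraries. Per kilobase of annotated exon the order was the other way, with Yap1 at 34.9 ± 3.74 and Wwtr1 at 40.8 ± 1.72 CPM per kb in mutant testes, and 37.3 ± 2.89 and 45.0 ± 3.37 CPM per kb in wild-type testes (SD, n = 2 each).

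LATS1 and LATS2, the kinases that restrain YAP and TAZ, had transcripts at nearly equal levels. Lats1 (chromosome 10, 7401007 to 7436256, plus strand) was read at 112 and 119.6 CPM in mutant and 104.6 and 105 CPM in wild-type testes, with a log2 fold change of 0.14 ± 0.08 (interval -0.05 to 0.34; edgeR adjusted p = 0.33). Lats2 (chromosome 14, 58260914 to 58377225, minus strand), which is also a YAP target, was read at 129 and 111 CPM in mutant and 109 and 111 CPM in wild-type testes. Its mutant replicate 1 stood above the other 3 libraries, the groups overlapped, and the log2 fold change was 0.12 ± 0.10 (interval -0.10 to 0.35; adjusted p = 0.467). Without mutant replicate 1 the value was 0.01. In the annotation Lats2 shares exon sequence with Xpo4 on the same strand, so reads there cannot be assigned with certainty. Amotl2 (chromosome 9, 102619002 to 102635748, plus strand) encodes an angiomotin-like scaffold that holds YAP at junctions and is itself switched on by YAP. It was read at 129 and 118 CPM in mutant and 115 and 111 CPM in wild-type testes (log2 fold change 0.12 ± 0.09, interval -0.08 to 0.32, adjusted p = 0.421).

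Of the DNA-binding TEAD factors, Tead1 was the member called higher. Tead1 (chromosome 7, 119822832 to 120050319, plus strand) was read at 135 and 113 CPM in mutant and 74.4 and 79.4 CPM in wild-type testes. Both mutant libraries stood well above both wild-type libraries, and the log2 fold change was 0.69 ± 0.11 (interval 0.44 to 0.93; edgeR adjusted p = 0.0171), which ranked 155 by p among the 14788 genes. Leaving out wild-type replicate 1 ended the call (0.64, adjusted p = 0.107), as did leaving out wild-type replicate 2 (0.73, adjusted p = 0.0722), settings in which 0.225% and 0.392% of genes were called higher. The call held without mutant replicate 1 (0.56, adjusted p = 0.0108) and without mutant replicate 2 (0.81, adjusted p = 0.000166). The annotation has a second entry with the symbol Tead1, a processed transcript on the same strand that shares exon sequence, and the counts do not separate them. Tead2 (chromosome 7, 52471123 to 52489005, plus strand), the TEAD gene best known from early embryos and progenitor cells, was read at 196 and 202 CPM in mutant and 182.5 and 167 CPM in wild-type testes (0.19 ± 0.08, interval -0.01 to 0.38, adjusted p = 0.213). Tead3 (chromosome 17, 28468616 to 28487750, minus strand) was read at 49.9 and 47.4 CPM in mutant and 40.8 and 34.0 CPM in wild-type testes (0.37 ± 0.12, interval 0.09 to 0.65, adjusted p = 0.108). Both genes were thus above wild type in each mutant library without being called, and the Tead2 counts may include reads of Cd37, which overlaps it on the opposite strand.

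Set against Tead2 or Yap1 within the same library, Tead1 took a larger share of reads in mutant testes. Tead2 reads outnumbered Tead1 reads 1.46 and 1.78 times in mutant and 2.45 and 2.10 times in wild-type libraries, with no overlap between groups. Tead1 reads per Yap1 read were 0.388 and 0.38 in mutant and 0.204 and 0.243 in wild-type libraries. For such single ratios 2 against 2 libraries allow no exact two-sided permutation p under 0.333, so these are given as values only. Per kilobase, Tead2 remained the most abundant TEAD transcript in every library, at 42.6 ± 0.852 CPM per kb in mutant and 37.4 ± 2.39 CPM per kb in wild-type testes. Tead3 stood at 11.1 ± 0.392 and 8.50 ± 1.09 CPM per kb, and Tead1 at 11.0 ± 1.34 and 6.84 ± 0.318 CPM per kb, in mutant and wild type. In mutant libraries the per-length levels of Tead1 (12.0 and 10.1 CPM per kb) and Tead3 (11.3 and 10.8) overlapped, whereas in wild-type libraries both Tead1 values (6.62 and 7.07) lay under both Tead3 values (9.27 and 7.73).

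**Figure D2:**
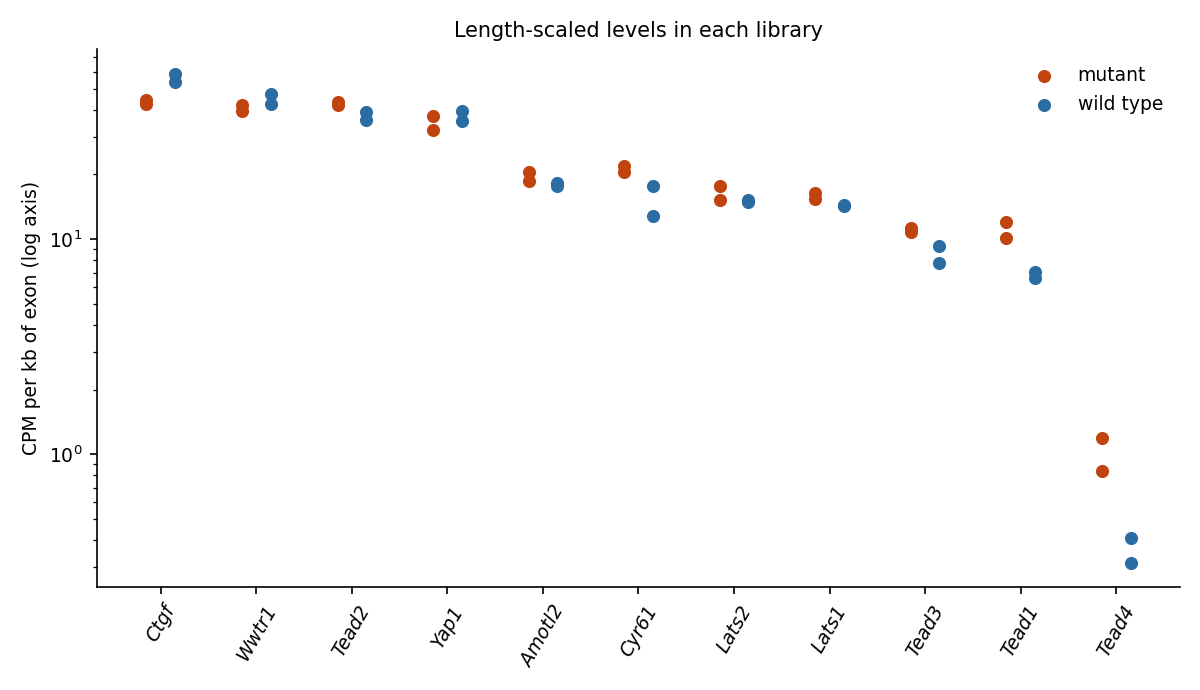
CPM per kilobase of annotated exon (log y axis) of the 10 members and Tead4 in each mutant and wild-type library (points), ordered by the mean over the 4 libraries. Ctgf, Wwtr1, Tead2 and Yap1 form the upper group, all above 32 CPM per kb, and Tead4 is at 1.19 or less.

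Ctgf and Cyr61, the pair of secreted matricellular proteins most often used to read out YAP and TAZ activity, gave different calls: Ctgf fell and Cyr61 was not called. Ctgf (chromosome 10, 24315248 to 24318489, plus strand) was read at 110.3 and 105 CPM in mutant and 146 and 134 CPM in wild-type testes. No mutant value reached the lower wild-type value, and the log2 fold change was -0.38 ± 0.09 (interval -0.58 to -0.18; edgeR adjusted p = 0.0462). This call sat close to the threshold. It was lost whichever of the 4 libraries was left out, with log2 fold changes of -0.44 to -0.32 and adjusted p of 0.0851 to 0.148, and with limma voom (adjusted p = 0.0562), upper-quartile scaling (0.0513) and no filter on low counts (0.0695). The long non-coding gene Gm15270 overlaps Ctgf on the opposite strand and was not analysed here, and the strand setting of the counting is not given in the sources used here.

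Cyr61 (chromosome 3, 145309935 to 145312949, minus strand), whose promoter is printed above, was read at 41.5 and 44.2 CPM in mutant and 36.0 and 26.0 CPM in wild-type testes. Both mutant libraries stood above both wild-type libraries, but the wild-type pair spread widely, and the log2 fold change of 0.46 ± 0.16 (interval 0.09 to 0.82) was not called (edgeR adjusted p = 0.121). Leaving out wild-type replicate 1 gave 0.72, and leaving out replicate 2 gave 0.25. As a ratio within each library, Ctgf reads outnumbered Cyr61 reads 2.66 and 2.38 times in mutant and 4.06 and 5.17 times in wild-type libraries. The ratio was lower in each mutant library than in either wild-type library, whatever the scaling between libraries. Per kilobase Ctgf stood at 43.3 ± 1.39 CPM per kb in mutant and 56.3 ± 3.46 in wild-type testes, and Cyr61 at 21.1 ± 0.957 and 15.3 ± 3.51 CPM per kb (SD, n = 2 each).

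**Figure D3:**
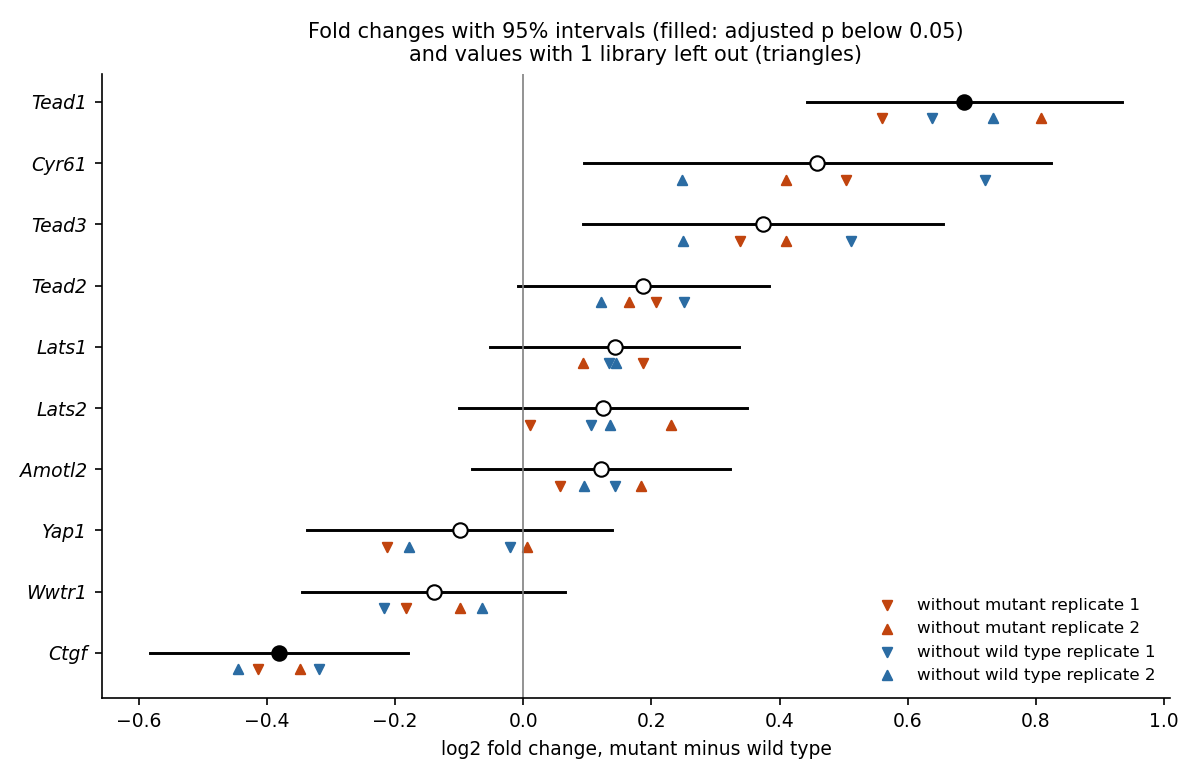
Log2 fold change (x axis, mutant minus wild type) of each member with its 95% interval, filled where the adjusted p was below 0.05, and the values with each library left out as triangles. Tead1 lies at 0.69 and Ctgf at -0.38. Every member except Yap1, called or not, stays on one side of 0 in all 4 leave-one-out fits, and Yap1 crosses 0 without mutant replicate 2.

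The genes nearest to Ctgf and Cyr61 in pattern were found by the root mean square distance of centred log2 CPM over the 4 libraries, among 1793 genes with a mean log2 CPM of at least 4 and a range of at least 0.5. Nudc, Brwd3 and Kif5c were nearest to Ctgf, at distances of 0.022 to 0.030, and Adam23, Fmod and Capn2 were nearest to Cyr61, at 0.031 to 0.035. Within a distance of 0.1 lay 140 genes for Ctgf and 72 for Cyr61, so 4 libraries single out no partner.

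Across the wider pathway no gene of the core cassette was called, and some upstream and target genes rose. Over 60 genes of the core, upstream, TEAD and target lists, 58 were tested, of which 7 rose, 1 fell and 50 were not called, with a median log2 fold change of 0.13. Without the 10 members, 6 of 48 rose by edgeR and none fell by edgeR, DESeq2 or limma voom. Both counts of risen genes include Vgll2, which passed the filter on low counts only through the mutant libraries, where it was high. Over all tested genes edgeR called 3.15% higher and 2.52% lower. An unadjusted edgeR p below 0.05 was found for 20 of the 48 (41.7%), against 25.5% of all tested genes. The lists were chosen with earlier results of these data known, so these shares are descriptive only. The 7 core kinases and adaptors (Stk3 and Stk4, which encode MST2 and MST1, Sav1, Mobkl1a, Mobkl1b, Lats1 and Lats2) had log2 fold changes of 0.03 to 0.14 and a median of 0.04. None was called by edgeR, DESeq2 or limma voom, and none had an unadjusted p below 0.05. Stk3 was read at 59.0 and 60.6 CPM in mutant and 55.1 and 62.5 CPM in wild-type testes, and Stk4 at 99.3 and 96.9 against 100.5 and 91.6 CPM.

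Of 24 upstream regulators 3 rose, none fell and 21 were not called, with a median of 0.13. Over all tested genes 3.15% were called higher and 2.52% lower. Amotl1, the angiomotin relative of Amotl2, was read at 139.6 and 128 CPM in mutant and 91.2 and 87.3 CPM in wild-type testes, a rise of 0.58 ± 0.09 on the log2 scale (edgeR adjusted p = 0.0171), in contrast to the 0.12 of Amotl2 given above. That difference between the paralogs was not itself tested. Dchs1, the protocadherin that is the ligand of Fat4, was read at 58.9 and 49.3 CPM in mutant and 37.5 and 33.2 CPM in wild-type testes and rose 1.52-fold (adjusted p = 0.0365). Dlg5, a scaffold of cell polarity, was read at 132 and 125 CPM in mutant and 98.7 and 101.1 CPM in wild-type testes and rose 1.29-fold (adjusted p = 0.0466). Leaving out either wild-type library ended the calls of Amotl1 and Dchs1, that of Dchs1 also ended without mutant replicate 1, and that of Dlg5 ended with the loss of any 1 library. Without wild-type replicates 1 and 2 the log2 fold changes were 0.61 and 0.55 for Amotl1 and 0.70 and 0.52 for Dchs1. Few of all tested genes were called higher in those 2 settings, as given for Tead1 above.

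Of 21 tested genes of a YAP and TAZ target list, 2 rose, 1 fell and 18 were not called, with a median of 0.16. The shares over all tested genes were 3.15% called higher and 2.52% lower. Myof, a ferlin of membrane repair and fusion, was read at 93.4 and 95.4 CPM in mutant and 61.0 and 62.5 CPM in wild-type testes, a log2 fold change of 0.61 ± 0.09 (edgeR adjusted p = 0.0128). Rbms3, an RNA-binding protein, was read at 74.3 and 76.1 CPM in mutant and 55.3 and 50.3 CPM in wild-type testes (0.51 ± 0.10, adjusted p = 0.0288). The gene that fell was Ctgf. In this list 16 of 21 genes (76.2%) had positive fold changes, called or not, against 49.2% of all tested genes. The list holds the members Ctgf, Cyr61, Amotl2 and Lats2. It was chosen with earlier results of these data known, so the share is descriptive only. Nor was such a share particular to the targets. Positive fold changes made up 100% of the core list, 79.2% of the upstream list and 77.8% of the TEAD list. Leaving out either wild-type library ended the calls of Myof and Rbms3, at 0.59 and 0.63 for Myof and 0.58 and 0.44 for Rbms3 without replicates 1 and 2. Those are the settings in which few of all tested genes were called higher.

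Among the relatives of Ctgf and Cyr61 in the CCN family, Nov was read at 20.9 and 13.9 CPM in mutant and 3.98 and 5.88 CPM in wild-type testes. Nov rose 3.54-fold (log2 fold change 1.83 ± 0.29, edgeR adjusted p = 0.0173). Leaving out wild-type replicate 1 or 2 ended the call, at log2 fold changes of 1.54 and 2.10. Few of all tested genes were called higher in those settings, as given for Tead1 above. Of 4 tested CCN genes 1 rose, 1 fell and 2 were not called, where 3.15% of all tested genes were called higher and 2.52% lower. Immediate early genes, which share serum and stretch responses with Ctgf and Cyr61, were 16 in number. None was called in the reported edgeR fit, by DESeq2 or by limma voom. An unadjusted edgeR p below 0.05 was found for 4 of them (25%), close to the 25.5% of all tested genes. Their median log2 fold change was 0.29. Fos was read at 8.19 and 6.64 CPM in mutant and 3.23 and 3.72 CPM in wild-type testes (1.08 ± 0.26, adjusted p = 0.0537), and it passed with edgeR's robust option (adjusted p = 0.0483) and without mutant replicate 2 (0.0226). Klf6 was read at 139.5 and 138 CPM in mutant and 119.6 and 92.2 CPM in wild-type testes (0.39 ± 0.12, adjusted p = 0.0987), at 0.59 with wild-type replicate 1 left out and 0.21 with wild-type replicate 2 left out. Nr4a1, named after its values were seen, was called lower in 1 setting, with wild-type replicate 1 left out (-0.87, adjusted p = 0.0426).

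**Figure D4:**
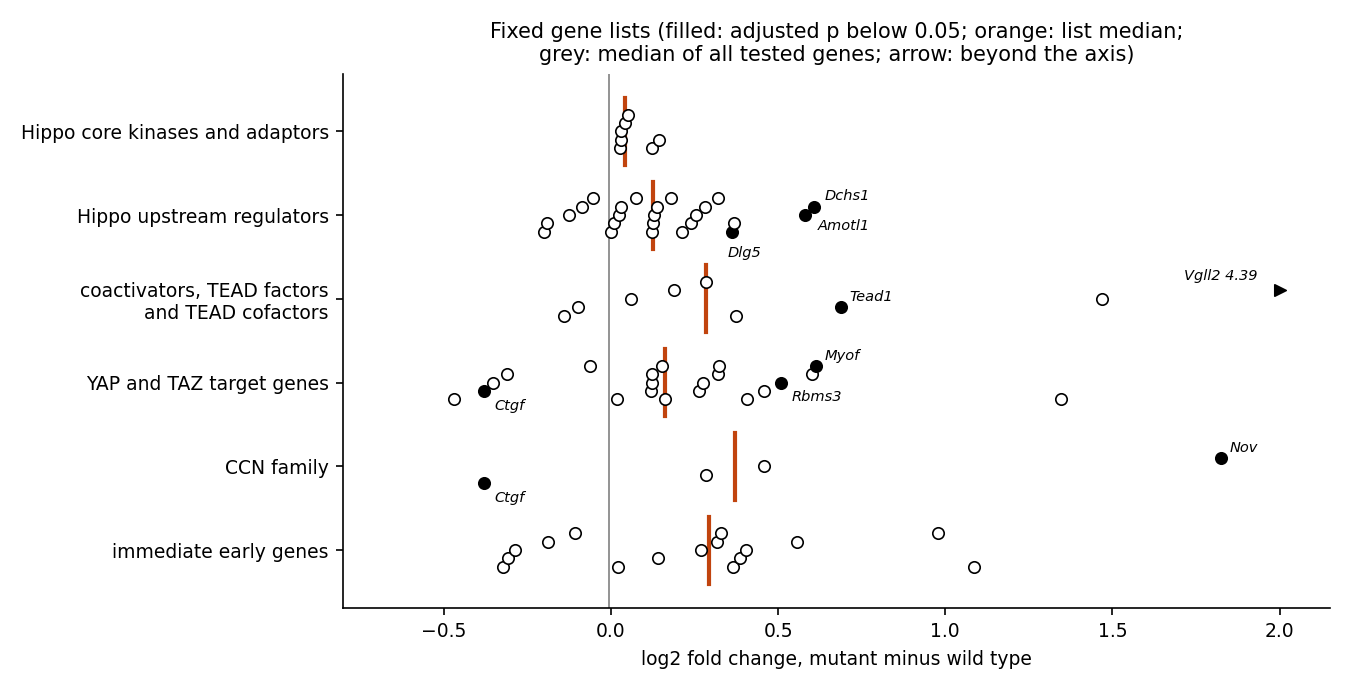
Log2 fold change (x axis, mutant minus wild type) of every tested gene of 6 gene lists, filled where the adjusted p was below 0.05, with list medians in orange and the median of all tested genes in grey. The core kinases and adaptors lie between 0.03 and 0.14, and Vgll2, at 4.39, is drawn as an arrow beyond the axis.

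Vgll2 and Tead4, genes known from developing skeletal muscle, were scarce in wild-type testes. Vgll2, a TEAD cofactor, had 38 and 14 reads in mutant replicates 1 and 2, against 1 and 1 in the wild-type libraries. The ratio of summed counts was 22.9 (exact 95% interval 6.04 to 194, counting error only). Vgll2 passed the filter on low counts only through the mutant libraries, where it was high, so its call is not independent of that filter. It was called higher (edgeR adjusted p = 0.0463) and is counted in the list totals above, while a filter at 1 CPM in 2 libraries left it untested. Leaving out either wild-type library ended that call, as did limma voom and the absence of a filter on low counts. Tead4 had 47 and 47 reads in mutant and 15 and 15 in wild-type libraries, a ratio of 2.76 (1.82 to 4.32), and was not called (adjusted p = 0.0625), while it passed without mutant replicate 2 (adjusted p = 0.0151). Tead1 is itself a regulator of muscle genes. The excess over the wild-type mean was 57.8 CPM in mutant replicate 1 and 36.4 CPM in mutant replicate 2 for Tead1, a ratio of 1.59, and the same ratio was 1.75 for Tead4, 4.18 for Vgll2 and 3.91 for the summed muscle markers. It was 1.31 for Amotl1, 1.68 for Dchs1, 1.78 for Nov, 0.938 for Myof and 0.921 for Rbms3. How much of the Tead1 difference belonged to muscle RNA was not tested.

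**Figure D5:**
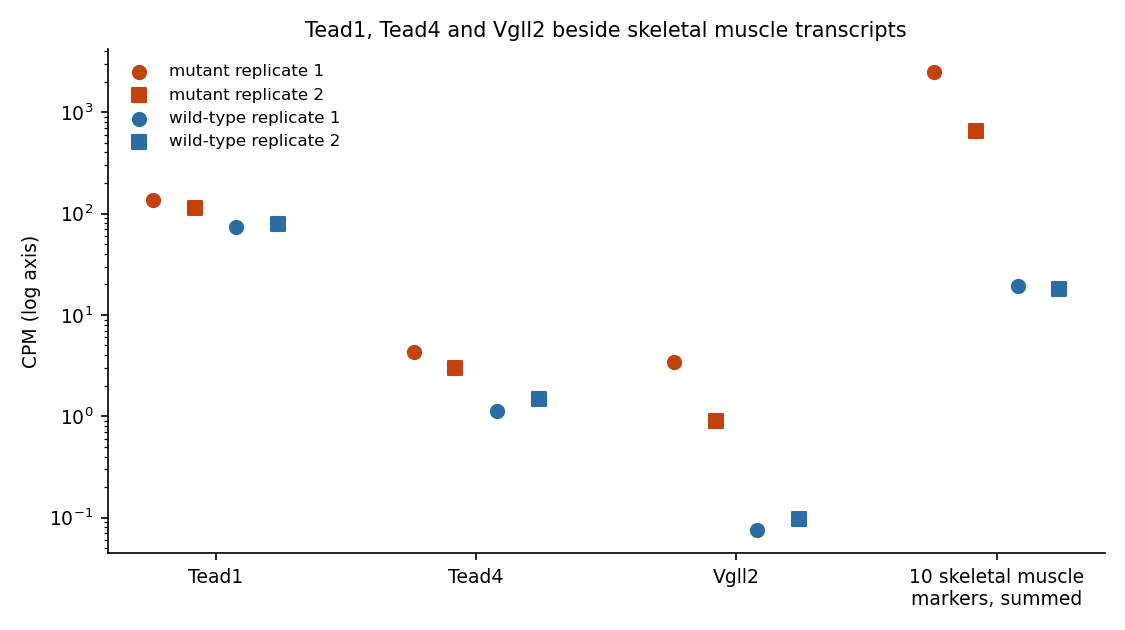
CPM (log y axis) of Tead1, Tead4, Vgll2 and the sum of 10 skeletal muscle markers in the 4 libraries (points). The muscle sum is 2479 and 648 CPM in the mutant libraries and 19.2 and 17.9 CPM in the wild-type libraries, while Tead1 is 135 and 113 against 74.4 and 79.4 CPM.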

How the data were processed

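Polyadenylated RNA of whole testes was sequenced as single-end reads, per the labels' protocols, in 2 mutant and 2 wild-type libraries. The submitters' processing notes list TopHat 1.4.0, CASAVA 1.8.1, DESeq2, HTSeq and build mm9, without roles. The authors deposited 1 table of counts, classed here as estimated counts only since lines below its genes hold percentages. Its gene values are whole numbers, so rounding changed nothing. Reads outside genes (13.8% to 17.3% of counted reads) and ambiguous reads (0.602% to 0.726%) were left out of library sizes and tests. How strand was treated in counting is not given in the sources used here, nor are the mode and annotation.

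The genotypes were compared by edgeR's quasi-likelihood F test (version 4.0.16 in R 4.3.3, legacy and robust options off) with genotype as the only term, trimmed mean of M values (TMM) scaling, and the default filter (minimum count 10, minimum total 15). Tests were two-sided, with Benjamini-Hochberg adjustment over 14788 genes. The standard error (SE) is the log2 fold change divided by the root of its F statistic, and 95% intervals use the t distribution. The pipeline was tested on simulated data. CPM uses TMM-adjusted library sizes, and CPM per kb divides by the union of exons in GENCODE M1 (mm9). DESeq2 1.42.0, limma voom (3.58.1), other scalings and filters, a replicate block, and fits without each library were alternatives.

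The members and lists were chosen with earlier results of these data known, and lists are described by counts and medians. Named were all members, the called genes of each list, up to 2 with the smallest p where fewer than 2 were called, any gene of the core, upstream and TEAD lists, and the 3 genes nearest to Ctgf and Cyr61. Not every gene the rule allows is described.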

Additional observations from a re-analysis of the deposited data

How the results depend on the processing

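All 10 members kept the sign of their fold change under the 10 alternatives that keep all libraries, and Tead1 stayed called in each. Ctgf lost its call with upper-quartile scaling (-0.37), no filter (-0.38) and limma voom (-0.38), so 0 members were called lower there, and likewise 0 genes over the fixed lists. With no filter, 282 genes were called higher and 218 lower (466 and 373 in the reported fit), and 5 of the fixed lists' genes higher (8 reported). Limma voom called 309 higher. Among list genes, Dchs1, Dlg5 and Vgll2 lost their calls with no filter, and Dlg5 and Vgll2 with limma voom. The cause was not tested.

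With 1 library left out, where the lone sample is assumed to vary like the pair, genes called ranged from 34 to 818 higher and 40 to 477 lower, and the low ends came without wild-type replicate 1. Members called ranged from 0 to 1 higher and were 0 lower by edgeR, while DESeq2 on all libraries called 1 lower and limma voom 0. Genes called over the fixed lists ranged from 0 to 12 higher and 0 to 1 lower. The log2 fold change ranged from -0.44 to -0.32 for Ctgf, from 0.56 to 0.81 for Tead1 and from -0.21 to 0.0060 for Yap1, which changed sign without mutant replicate 2. Stk3 ranged from -0.067 (without wild-type replicate 1) to 0.12, and Stk4 from -0.038 (without wild-type replicate 2) to 0.10.

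Nothing in the labels ties libraries with the same number, and their deviations from the group means correlated at -0.0314 across genes. With the replicate block, 512 genes were called higher and 341 lower, Tead1 was at 0.69 and Ctgf at -0.38 (edgeR adjusted p = 0.0188 and 0.0495), and among the list genes named, Dlg5 lost its call (0.36, adjusted p = 0.0603) and Thra gained one (-0.57, adjusted p = 0.0281).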
